A study of Mus musculus with 6 samples.

Results

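The 36 genes described here drive or mark the cell division cycle, and were taken by symbol from a list of cell cycle and replication genes. All 36 were found among the 31384 genes of the deposited count table, and all 36 passed the filter on low counts that left 16121 genes for testing. They were divided by the phase in which they act into 10 G1 genes, 5 genes of the passage from G1 to S (G1/S), 9 DNA replication genes and 12 mitotic genes.

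A mouse spermatogonial stem cell line was grown for 18 days on feeder cells, mouse embryonic fibroblasts treated with mitomycin C, a DNA crosslinker used to stop feeders from dividing. All groups shared a StemPro-34 based medium; the labels give EGF and FGF2 at 10 ng/mL and 5000 U LIF for PTC, and set the other media apart only by GDNF. Recombinant rat GDNF at 10 ng/mL was present in PTC alone; NTC cultures went without it, and LOVA cultures had lovastatin at 5 uM instead. Each group has 2 libraries, called A and B after the columns of the table, with 12454671 to 22668087 counts each, and no label states that replicate libraries came from separate cultures, so p-values here measure only the spread between libraries, which may be technical. Spermatogonial stem cells self-renew in culture under GDNF, which signals through the receptor Ret, while lovastatin inhibits HMG-CoA reductase, an enzyme of cholesterol synthesis.

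Entry into the cycle is controlled in G1, where D-type cyclins with Cdk4 or Cdk6 phosphorylate the retinoblastoma protein Rb1 and release E2F factors, and where CDK inhibitors of the INK4 and Cip/Kip families hold them back. E2F factors then switch on cyclin E and the replication machinery, including the ring of MCM proteins that opens the DNA helix. Later in the cycle, complexes that contain B-Myb, FoxM1 and the MuvB core bind CHR elements and activate the mitotic cyclins, kinases and checkpoint genes, often together with NF-Y at CCAAT boxes. In the testis, cycling spermatogonia are the dividing cells that feed spermatogenesis, and in culture they divide beside feeders that do not.

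Promoter windows, from 250 bases before to 50 after the start site in RefSeq on GRCm38.p6, existed for 28 of the 36 genes. Windows of the following genes are shown because their classes differed most between the groups: both replication and both mitotic genes have the largest differences between NTC and PTC among those of their class with the class's motif, and the CDK inhibitor gene Cdkn2b is the G1 gene with the largest rise. Capitals mark matches, on either strand, to an E2F site (TTTCCCGC, TTTCGCGC, TTTGCCGC or TTTGGCGC), a CHR (TTTGAA or TTCGAA) or a CCAAT box (CCAAT), and overlapping or touching matches run together. The windows, each printed 5′ to 3′ on the strand of its gene, are Mcm7 at chr5:138171834-138172133 (minus), Mcm5 at chr8:75109259-75109558 (plus), Cdc20 at chr4:118437294-118437593 (minus), Ccnb2 at chr9:70421505-70421804 (minus) and Cdkn2b at chr4:89310983-89311282 (minus).
Mcm7: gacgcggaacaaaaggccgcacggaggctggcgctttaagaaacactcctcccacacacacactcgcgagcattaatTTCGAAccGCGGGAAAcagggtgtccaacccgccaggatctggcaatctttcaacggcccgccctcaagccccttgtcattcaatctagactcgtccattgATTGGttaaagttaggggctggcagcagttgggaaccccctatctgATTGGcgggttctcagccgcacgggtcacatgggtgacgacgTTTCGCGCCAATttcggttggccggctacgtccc
Mcm5: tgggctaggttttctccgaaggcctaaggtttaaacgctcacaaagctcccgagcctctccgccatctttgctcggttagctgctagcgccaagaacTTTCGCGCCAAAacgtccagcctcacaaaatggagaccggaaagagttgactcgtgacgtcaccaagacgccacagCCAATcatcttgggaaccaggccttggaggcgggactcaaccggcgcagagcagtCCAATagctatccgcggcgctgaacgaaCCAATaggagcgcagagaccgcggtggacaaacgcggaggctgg
Cdc20: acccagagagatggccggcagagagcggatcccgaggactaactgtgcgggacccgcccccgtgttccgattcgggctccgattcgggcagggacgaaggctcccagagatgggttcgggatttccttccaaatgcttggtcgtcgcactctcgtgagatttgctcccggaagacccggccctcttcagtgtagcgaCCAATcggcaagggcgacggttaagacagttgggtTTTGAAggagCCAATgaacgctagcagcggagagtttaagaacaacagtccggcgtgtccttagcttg
Ccnb2: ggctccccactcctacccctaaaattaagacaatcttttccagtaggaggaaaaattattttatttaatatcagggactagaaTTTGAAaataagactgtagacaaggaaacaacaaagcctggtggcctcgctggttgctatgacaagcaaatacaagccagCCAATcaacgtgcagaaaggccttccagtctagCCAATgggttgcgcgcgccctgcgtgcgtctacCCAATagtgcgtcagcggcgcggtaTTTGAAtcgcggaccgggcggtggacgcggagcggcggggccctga
Cdkn2b: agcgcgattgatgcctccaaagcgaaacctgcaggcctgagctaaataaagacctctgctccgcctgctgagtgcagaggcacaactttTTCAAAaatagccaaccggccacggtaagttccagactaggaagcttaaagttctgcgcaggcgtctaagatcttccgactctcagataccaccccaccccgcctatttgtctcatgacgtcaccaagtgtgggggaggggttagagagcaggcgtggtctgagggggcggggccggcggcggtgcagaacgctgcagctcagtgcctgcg
With the start site counted as base 1 and the base before it as -1, the CHR of the Cdc20 window begins at -18, between CCAAT boxes at -53 and -8. The Mcm7 window, which is 1 of 2 RefSeq windows of that gene, holds E2F matches at -165 and 17. In Cdkn2b the only capitals are a CHR at -161 on the opposite strand.

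The motifs differed by class. A CHR was present in 8 of 9 mitotic genes with a window (88.9%), all but Ccnb1, against 2 of 8 replication genes, 14.3% of 7 G1 genes and 0 of 4 G1/S genes. Among all 12166 tested genes with a window, 16.5% held one. An E2F match was present in 4 of 8 replication genes (50.0%; Mcm3, Mcm5, Mcm6 and Mcm7), in 2 of 4 G1/S genes (Cdk2 and Cdc25a) and in 1 of 9 mitotic genes (Cdk1), against 4.42% of all tested genes. CHR and CCAAT matches stood together in 88.9% of the mitotic genes and 8.22% of all tested genes. These are letter matches in fixed windows, and they say nothing of binding.

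**Figure D1:**
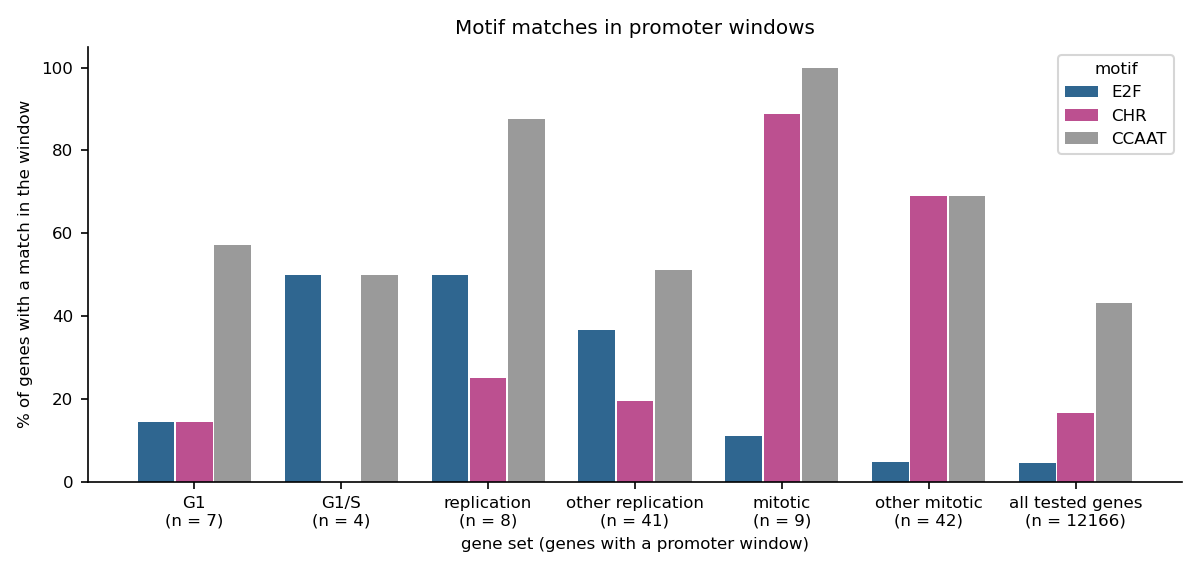
Share of genes (%) with at least 1 match to each motif in the promoter window, by class of genes, with the number of genes that have a window under each name. The CHR bars are highest in the mitotic genes (88.9%) and the other mitotic genes (69.0%), and the E2F bars in the G1/S and replication genes (50.0% each).

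The libraries also held RNA of cells other than the stem cells, which bears on every value below. Markers of germ cells (19 genes, among them Ddx4 and Dazl) were present in all libraries and took 0.553% of PTC A counts and 0.557% of PTC B counts, against 0.307% of NTC A, 0.209% of NTC B, 0.367% of LOVA A and 0.197% of LOVA B. Feeder fibroblast markers (20 genes, none at 0 in any library) took 0.164% of PTC A and 0.670% of PTC B, but 1.99% of NTC A, 3.29% of NTC B, 1.75% of LOVA A and 3.23% of LOVA B. All 20 fibroblast markers were higher in NTC than in PTC (14 called) and all 19 germ cell markers were lower (10 called), with the same counts in LOVA against PTC. For the 10 macrophage markers the range was 0.182% to 0.230% in NTC libraries; LOVA libraries held at most 0.0484% and PTC libraries at most 0.0266%. Sertoli markers (9 genes) took at most 0.0103% of any library. Fshr was at 0 in all of them, but others, such as Wt1 and Kitl, had counts in every library. Of the 5 Sertoli markers tested, 4 were higher in NTC than in PTC (1 called), with the same counts in LOVA against PTC. Of all tested genes, 21.5% and 19.8% were called higher in these comparisons. In bulk RNA, fewer cells of a type and less RNA per cell cannot be told apart.

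Removal of GDNF went with lower replication and mitotic transcripts and with higher G1 transcripts. Between NTC and PTC, 13 of the 36 genes were called lower and 5 called higher (edgeR, Benjamini-Hochberg adjusted p under 0.05 over 16121 genes), and 18 were not called. Of all tested genes, 12.9% were called lower, 21.5% called higher and 34.5% called in either direction. The median log2 fold change was 0.59 for G1 genes, -0.22 for G1/S genes, -0.89 for replication genes and -1.26 for mitotic genes, against -0.02 for all tested genes. Counted by libraries, 24 of the 36 genes had both NTC values below both PTC values, and 8 had both above, while 38.5% and 39% of all tested genes did so. When the libraries were scaled to the summed counts of the germ cell markers instead, the split became 0 lower and 6 higher, a scaling that moved the median of all tested genes by 1.03, to 1.01, and called 32.4% of them higher and 0.248% lower. The 6 of 36 lay below that background. Under it the G1 median was 1.65 and the G1/S median 0.80, the replication median turned to 0.10 and the mitotic median was -0.28, so every direction below is relative to the TMM scaling. Total counts without TMM moved the median of all tested genes by -0.11 and left the directions of the classes as they were.

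**Figure D2:**
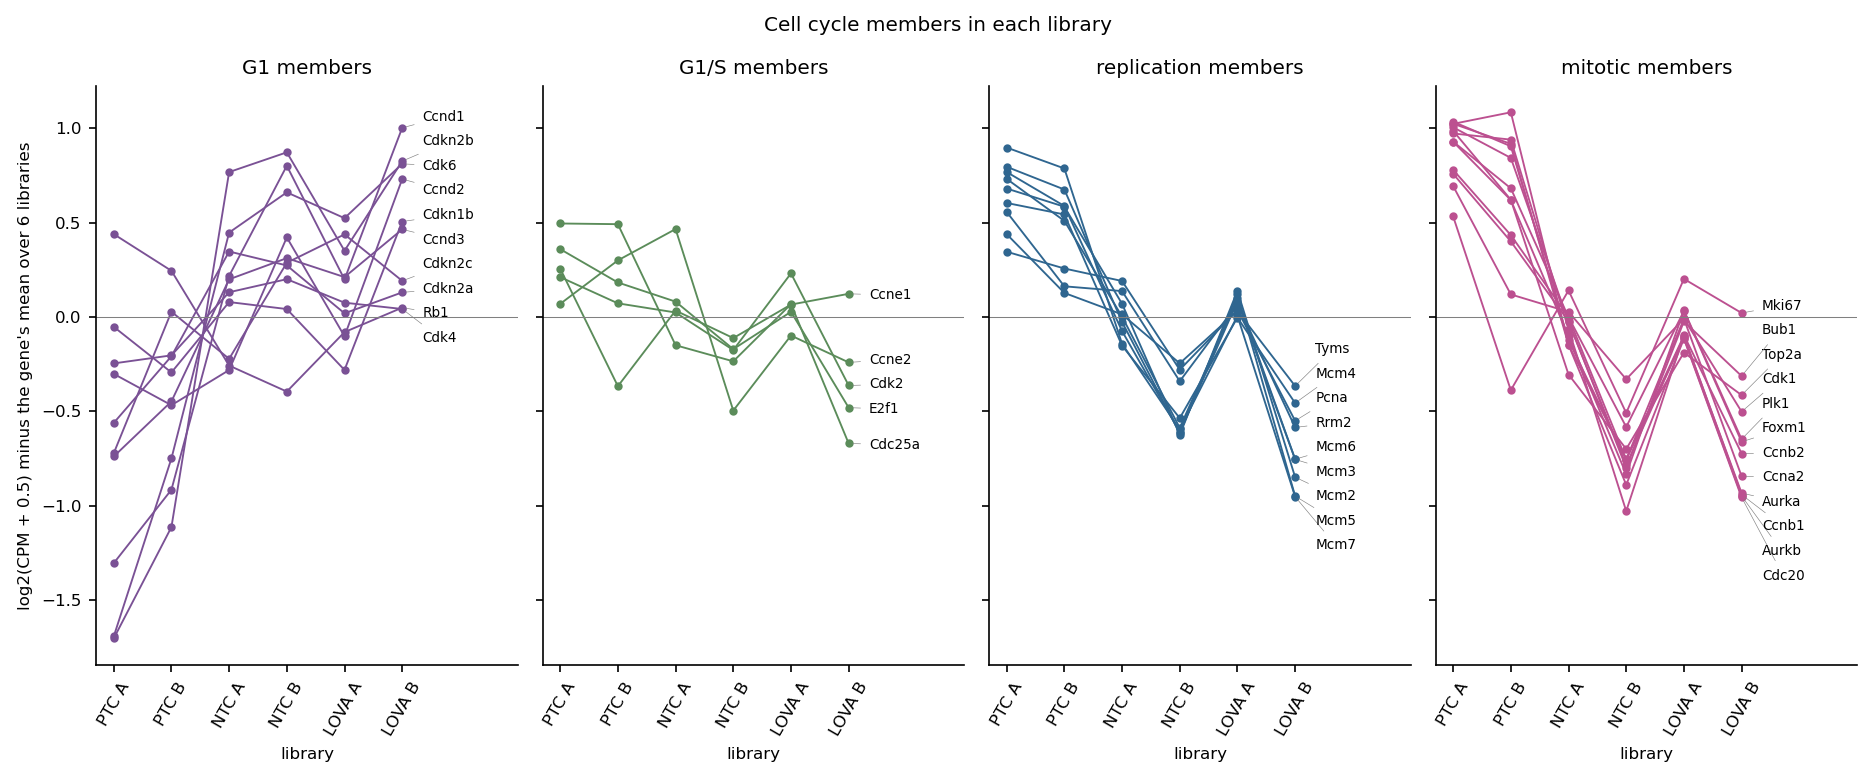
Each line is 1 gene, with log2(CPM + 0.5) in each library minus the gene's mean over the 6 libraries on the vertical axis, on the TMM scale; lines only join the points of a gene, and libraries have no order within a group. Replication and mitotic lines other than Mki67 lie highest in the PTC libraries and lowest in NTC B and LOVA B, while most G1 lines lie lowest in PTC.

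Among the G1 genes, the D-type cyclins, which activate Cdk4 and Cdk6, had higher means without GDNF. Ccnd1, cyclin D1, had 64.3 and 84.4 CPM (counts in proportion to the TMM-scaled library total) in PTC A and B, 186 and 279 CPM in NTC A and B, and 183 and 321 CPM in LOVA A and B. Both NTC and both LOVA values lay above both PTC values, and Ccnd1 was called 3.12-fold higher in NTC (log2 fold change 1.64, SE 0.33, adjusted p = 0.0156). Ccnd3, cyclin D3, had 114 and 140 CPM in PTC, 219 and 237 CPM in NTC and 221 and 264 CPM in LOVA. It was called 1.80-fold higher in NTC (0.85, SE 0.18, adjusted p = 0.0178), again with no overlap. Ccnd2, cyclin D2, had 197 and 176 CPM in PTC, 200 and 326 CPM in NTC and 226 and 404 CPM in LOVA. Its A libraries lay close together in the 3 groups and only NTC B and LOVA B stood well above, and the difference of 0.50 (SE 0.33, adjusted p = 0.267) was not called. Per length of the gene's exons, cyclin levels in PTC were 15.8 ± 3.02 RPKM for Ccnd1, 19.8 ± 1.62 RPKM for Ccnd2 and 14.5 ± 2.07 RPKM for Ccnd3 (SD, n = 2). In NTC they were 49.3 ± 14.0, 28.0 ± 9.46 and 26.02 ± 1.43 RPKM. By this measure Ccnd1 had the highest mean of the D-type cyclins there, with an SD that overlapped that of Ccnd2. The rank depends on the length used: by mean CPM in NTC, Ccnd2 (263) lay above Ccnd1 (232.3) and Ccnd3 (228.3).

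The partner kinases of the D-type cyclins differed in level and in change. Cdk6 had 6.21 and 12.4 CPM in PTC, 29.1 and 33.8 CPM in NTC and 30.7 and 37.6 CPM in LOVA. Both groups without GDNF lay above PTC, and Cdk6 was called 3.36-fold higher in NTC (1.75, SE 0.35, adjusted p = 0.0152). Cdk4 had 206 and 212 CPM in PTC, 268 and 281 CPM in NTC and 258 and 252 CPM in LOVA. The NTC values did not overlap PTC, but the difference of 0.39 (SE 0.14, adjusted p = 0.0738) missed the threshold. Per exon length Cdk4 was far more abundant than Cdk6 in every group, with 64.4 ± 1.34 against 0.665 ± 0.313 RPKM in PTC and 84.4 ± 2.88 against 2.25 ± 0.238 RPKM in NTC. Exons of Cdk4 are overlapped by Tspan31 on the opposite strand (5616 counts in all against 22525 for Cdk4).

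The INK4 inhibitors, which block Cdk4 and Cdk6, included the gene with the largest difference of all 36. Cdkn2b (ENSMUSG00000073802, p15INK4b), on chromosome 4 from 89306299 to 89311039, had 11.4 and 17.4 CPM in PTC, 65.6 and 70.5 CPM in NTC and 49.0 and 68.3 CPM in LOVA. It was called 4.70-fold higher in NTC than in PTC (2.23, 95% interval 1.57 to 2.89, adjusted p = 0.00859). Its neighbour Cdkn2a, whose counts hold both p16INK4a and ARF transcripts, had 55.1 and 70.5 CPM in PTC, 104 and 98.6 CPM in NTC and 82.6 and 89.3 CPM in LOVA. Cdkn2a was called higher in NTC (0.69, SE 0.18, adjusted p = 0.0303), and both NTC values were above both LOVA values, which in turn were above PTC. Cdkn2c, p18INK4c, was near the bottom of the range with 1.32 and 2.56 CPM in PTC, 2.07 and 3.16 CPM in NTC and 3.56 and 2.92 CPM in LOVA. NTC overlapped PTC, and the difference of 0.42 (SE 0.49, adjusted p = 0.526) was not called.

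The last G1 genes were an inhibitor of the Cip/Kip family and the retinoblastoma gene. Cdkn1b, p27, had 18.9 and 15.9 CPM in PTC, 20.8 and 20.3 CPM in NTC and 16.1 and 28.1 CPM in LOVA, and was not called (0.24, SE 0.30, adjusted p = 0.570). Rb1 alone of the 10 G1 genes had a negative difference. It had 72.5 and 63.3 CPM in PTC, 44.5 and 40.4 CPM in NTC and 50.4 and 55.2 CPM in LOVA. The order of the groups was PTC, LOVA, NTC with no overlap, and Rb1 was called 1.60-fold lower in NTC than in PTC (-0.68, SE 0.18, adjusted p = 0.0292). Exons of Rb1 are overlapped on the opposite strand by Rcbtb2 and Lpar6 (2385 and 380 counts in all against 5177). Reads of these genes may stand in its value. In all, 5 of the 10 G1 genes were called higher and 1 lower, against 21.5% and 12.9% of all tested genes.

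Most G1 genes were higher in the libraries with more feeder marker counts. PTC A had the lowest fibroblast share and the lowest level of Ccnd1, Ccnd3, Cdk4, Cdk6, Cdkn2a, Cdkn2b and Cdkn2c. The B library had the larger fibroblast share in each group, and 7, 7 and 8 of the 10 G1 genes were higher in B in PTC, NTC and LOVA. The others went the other way: Ccnd2, Rb1 and Cdkn1b in PTC, Rb1, Cdkn1b and Cdkn2a in NTC, and Cdk4 and Cdkn2c in LOVA. All 10 macrophage markers were called higher in NTC against PTC (median 2.81), and in LOVA against PTC all 10 had positive values with 2 called (median 0.78). The part of feeder or macrophage RNA in the G1 result was not tested.

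**Figure D3:**
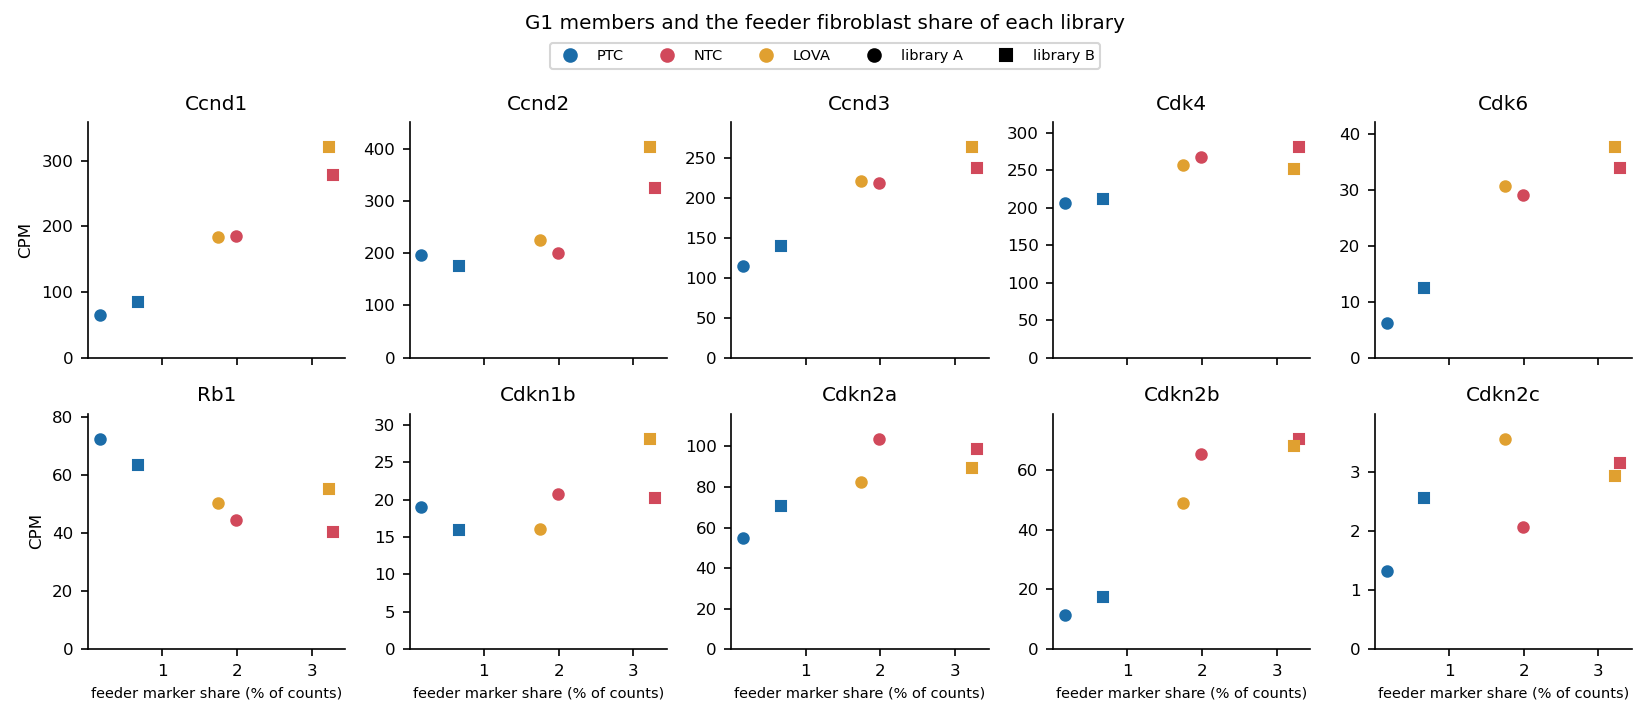
Each panel plots a G1 gene's CPM against the summed feeder fibroblast marker share of the library (% of counts), with colours for groups and shapes for libraries A and B. The PTC libraries lie at the left (0.164% and 0.670%) and low for Ccnd1, Ccnd3, Cdk6 and Cdkn2b, while Rb1 is highest there.

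None of the 5 G1/S genes was called between NTC and PTC. Cdc25a, the phosphatase that activates Cdk2, had the largest difference, with 71.1 and 70.9 CPM in PTC, 45.3 and 42.6 CPM in NTC and 52.7 and 31.4 CPM in LOVA. All 4 values without GDNF were below both PTC values, but the difference of -0.69 (SE 0.26, adjusted p = 0.0759) missed the threshold. E2f1, the E2F factor that activates S-phase genes, had 106 and 93.7 CPM in PTC, 87.3 and 73.3 CPM in NTC and 84.1 and 59.0 CPM in LOVA (NTC against PTC -0.31, SE 0.22, adjusted p = 0.294). Cdk2, the kinase partner of cyclin E, had 79.6 and 72.3 CPM in PTC, 69.9 and 60.8 CPM in NTC and 80.8 and 53.3 CPM in LOVA (-0.22, SE 0.23, adjusted p = 0.492). Both genes had NTC below PTC without overlap, by less than the fit could call.

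The E-type cyclins showed still smaller differences. Ccne1, cyclin E1, had 27.8 and 17.9 CPM in PTC, 23.7 and 21.4 CPM in NTC and 24.3 and 25.3 CPM in LOVA, and both other groups lay within the PTC range. Its difference was -0.01 with a 95% interval from -0.64 to 0.61. Ccne2, cyclin E2, had 14.0 and 16.5 CPM in PTC, 18.6 and 9.29 CPM in NTC and 12.4 and 11.2 CPM in LOVA (-0.13, 95% interval -0.98 to 0.71). Ccne2 is overlapped on the opposite strand by the more abundant Ints8 (7889 counts against 1291), and the strand setting used in counting is not given in the sources used here, so reads of either gene may stand in its value.

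The replication genes were all lower without GDNF, with no overlap between NTC and PTC in any of the 9, and 3 of them were called. Of all tested genes, 38.5% were lower in NTC without overlap and 12.9% were called lower. Under the germ cell scaling none of the 9 was called, where 0.248% of all tested genes were called lower and 32.4% higher. The 6 genes of the MCM helicase had differences from -1.20 to -0.87 (median -0.96). Mcm7 (ENSMUSG00000029730), on chromosome 5 from 138164583 to 138172422, had 524 and 485 CPM in PTC, 255 and 186 CPM in NTC and 282 and 145 CPM in LOVA. It was called 2.29-fold lower in NTC (-1.20, SE 0.32, adjusted p = 0.0309). Exons of Mcm7 are overlapped on the opposite strand by Cops6 and Ap4m1 (17034 and 3504 counts in all against 31478). Mcm3 had 333 and 294 CPM in PTC, 185 and 128 CPM in NTC and 207 and 115 CPM in LOVA, and was called 2.002-fold lower in NTC (-1.002, SE 0.31, adjusted p = 0.0449). Mcm4 had 200 and 192 CPM in PTC, 118 and 90.5 CPM in NTC and 131 and 95.6 CPM in LOVA, and was called 1.88-fold lower (-0.91, SE 0.22, adjusted p = 0.0232). In each of these subunits the lowest PTC library was well above the highest library of the other groups.

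The helicase subunits that missed the threshold had differences of like size. Mcm5 had 299 and 275 CPM in PTC, 169 and 112 CPM in NTC and 187 and 88.8 CPM in LOVA (-1.03, SE 0.36, adjusted p = 0.0639). Mcm2 had 456 and 427 CPM in PTC, 298 and 184 CPM in NTC and 313 and 158 CPM in LOVA (-0.87, SE 0.36, adjusted p = 0.0960). Mcm6 had 476 and 408 CPM in PTC, 287 and 190 CPM in NTC and 306 and 170 CPM in LOVA (-0.89, SE 0.32, adjusted p = 0.0688). In all 6 subunits the A library of NTC and of LOVA lay above the B library, and the gap between letters within a group was larger than the gap between NTC and LOVA libraries of the same letter.

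The replication genes outside the helicase had smaller differences, from -0.46 to -0.33, and none was called. Pcna, the sliding clamp of the DNA polymerases, had 215 and 202 CPM in PTC, 193 and 139 CPM in NTC and 174 and 115 CPM in LOVA (-0.33, SE 0.25, adjusted p = 0.331). Rrm2, a subunit of ribonucleotide reductase, had 38.8 and 29.4 CPM in PTC, 28.8 and 20.6 CPM in NTC and 27.5 and 17.3 CPM in LOVA (-0.46, SE 0.31, adjusted p = 0.270). Tyms, thymidylate synthase, had 37.9 and 30.5 CPM in PTC, 28.1 and 23.4 CPM in NTC and 28.5 and 21.5 CPM in LOVA (-0.41, SE 0.24, adjusted p = 0.218). The nucleotide-supply genes and the clamp thus had NTC A just below PTC B, where the helicase genes had a wide gap. The difference between these genes and the helicase genes was not tested. A processed copy, Pcna-ps2, had 305 counts in the table against 16544 for Pcna. Pcna-ps1 and the named pseudogenes of Tyms, Ccnb1, Ccnb2 and Ccnd3 were absent from the count table.

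Of the 12 mitotic genes 9 were called lower in NTC than in PTC, where 12.9% of all tested genes were, and all 12 had negative differences. Cdc20 (ENSMUSG00000006398), which activates the anaphase-promoting complex, lies on chromosome 4 from 118432901 to 118437352. It had 248 and 259 CPM in PTC, 110 and 65.6 CPM in NTC and 113 and 62.6 CPM in LOVA, and was called 2.89-fold lower in NTC (-1.53, SE 0.34, adjusted p = 0.0196). Per length of the exon union Cdc20 was the most abundant mitotic gene in PTC, with 136 ± 4.09 RPKM, and stood at 47.0 ± 16.8 RPKM in NTC. That rank depends on the length used: by mean CPM in PTC, Top2a (613.5) and Ccnb1 (408.2) lay above Cdc20 (253.7).

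The mitotic cyclins, which drive entry into mitosis with Cdk1, were called lower, while their kinase was not. Ccnb2, cyclin B2, had 94.2 and 92.1 CPM in PTC, 45.7 and 23.2 CPM in NTC and 44.7 and 28.7 CPM in LOVA (-1.44, SE 0.36, adjusted p = 0.0246). Ccnb1, cyclin B1, had 423 and 393 CPM in PTC, 188 and 123 CPM in NTC and 194 and 108 CPM in LOVA (-1.39, SE 0.32, adjusted p = 0.0208). Ccna2, cyclin A2, which acts in S phase and G2, had 188 and 158 CPM in PTC, 98.3 and 58.1 CPM in NTC and 97.8 and 54.6 CPM in LOVA (-1.15, SE 0.35, adjusted p = 0.0425). Exons of Ccna2 are overlapped on the opposite strand by Exosc9 (3106 counts in all against 10851). The cyclin libraries of NTC and LOVA all lay far below PTC. Cdk1 had 69.6 and 46.6 CPM in PTC, 43.7 and 34.0 CPM in NTC and 42.6 and 30.1 CPM in LOVA, a difference of -0.58 (SE 0.28, adjusted p = 0.145). PTC B lay close to NTC A for this gene.

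The mitotic kinases followed the cyclins. Aurkb, the kinase of the chromosomal passenger complex, had 102 and 93.0 CPM in PTC, 45.3 and 29.1 CPM in NTC and 45.7 and 25.4 CPM in LOVA (-1.39, SE 0.33, adjusted p = 0.0229). Aurka, the spindle pole kinase, had 90.4 and 80.8 CPM in PTC, 44.0 and 25.8 CPM in NTC and 41.7 and 23.2 CPM in LOVA (-1.30, SE 0.35, adjusted p = 0.0313). Plk1, polo-like kinase, had 55.9 and 45.0 CPM in PTC, 27.1 and 16.1 CPM in NTC and 29.8 and 18.4 CPM in LOVA (-1.22, SE 0.34, adjusted p = 0.0335). All these kinases were called lower in NTC with wide gaps between the groups. Bub1, a kinase of the spindle checkpoint, had 128 and 99.7 CPM in PTC, 74.3 and 43.1 CPM in NTC and 74.2 and 60.6 CPM in LOVA, and was also called (-0.96, SE 0.29, adjusted p = 0.0428).

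The remaining mitotic genes spanned the widest range of the class. Top2a, the DNA topoisomerase that untangles sister chromatids, had 691 and 536 CPM in PTC, 282 and 214 CPM in NTC and 306 and 261 CPM in LOVA, and had the lowest adjusted p of the class (-1.31, SE 0.22, adjusted p = 0.0109). Foxm1, the transcription factor of mitotic genes, had 145 and 114 CPM in PTC, 84.5 and 56.2 CPM in NTC and 86.4 and 53.2 CPM in LOVA (-0.88, SE 0.30, adjusted p = 0.0602), and missed the threshold without overlap. Mki67, the proliferation marker Ki-67, differed from the rest: PTC A had 130 CPM but PTC B 68.3 CPM, against 98.7 and 62.7 CPM in NTC and 103 and 90.8 CPM in LOVA. Mki67 alone of the mitotic genes overlapped between NTC and PTC, and its difference was -0.29 with a 95% interval from -1.11 to 0.52.

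**Figure D4:**
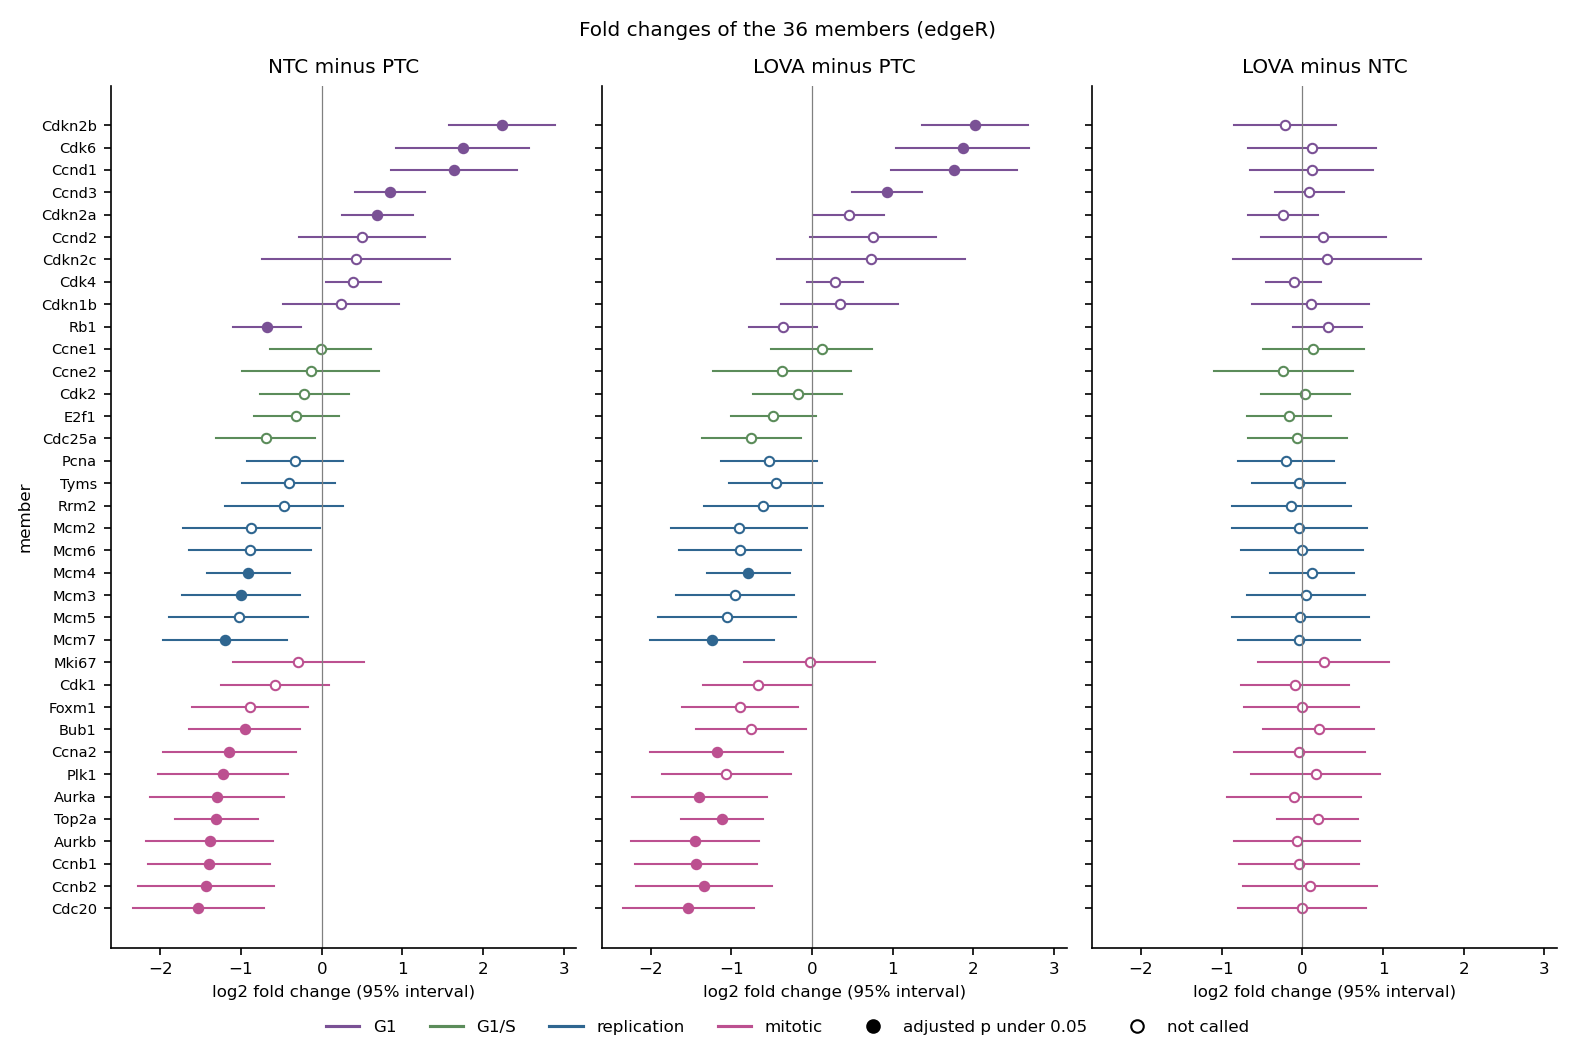
Log2 fold changes (points) with 95% intervals (lines) of the 36 genes in the 3 comparisons, coloured by class, with filled points where the adjusted p was under 0.05. In both comparisons with PTC the points run from Cdkn2b at the top (2.23 and 2.02) to Cdc20 at the bottom (-1.53 in both), and in LOVA minus NTC all lie between -0.24 and 0.31.

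Set against the germ cell markers of the same library, replication and mitotic sums of NTC and of LOVA overlapped those of PTC, while G1 and G1/S sums did not. For each germ cell marker count PTC had 0.466 ± 0.0432 replication counts, NTC 0.496 ± 0.0229 and LOVA 0.451 ± 0.0171 (SD, n = 2), so the groups differed by about the spread between libraries. Mitotic counts per germ cell marker count were 0.412 ± 0.0608 in PTC, 0.355 ± 0.0271 in NTC and 0.359 ± 0.0409 in LOVA, and the NTC and LOVA values overlapped the PTC range. G1/S counts were 0.0539 ± 0.00496, 0.0865 ± 0.00881 and 0.0783 ± 0.0101, and G1 counts 0.146 ± 0.00271, 0.498 ± 0.175 and 0.518 ± 0.288, in the same order of groups. G1 and G1/S sums were thus higher in every library without GDNF. On this scale the median of all tested genes was itself 1.01 higher in NTC than in PTC (log2), above the G1/S median of 0.80 and below the G1 median of 1.65. In the edgeR fit scaled to these markers, Ccnd1 (2.73), Ccnd3 (1.89), Cdk4 (1.43), Cdk6 (2.81), Cdkn2a (1.72) and Cdkn2b (3.28) were called higher in NTC than in PTC. No replication or mitotic gene was called under that scaling, which called 32.4% of all tested genes higher and 0.248% lower. Positive values were seen in 6 of 9 replication and 4 of 12 mitotic genes. The replication median was 0.10 and the mitotic median -0.28, both below the 1.01 of all tested genes under the same scaling. The largest negative value there was that of Cdc20 (-0.55, adjusted p = 0.150). The part of the germ cell share in the replication and mitotic results was not tested.

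**Figure D5:**
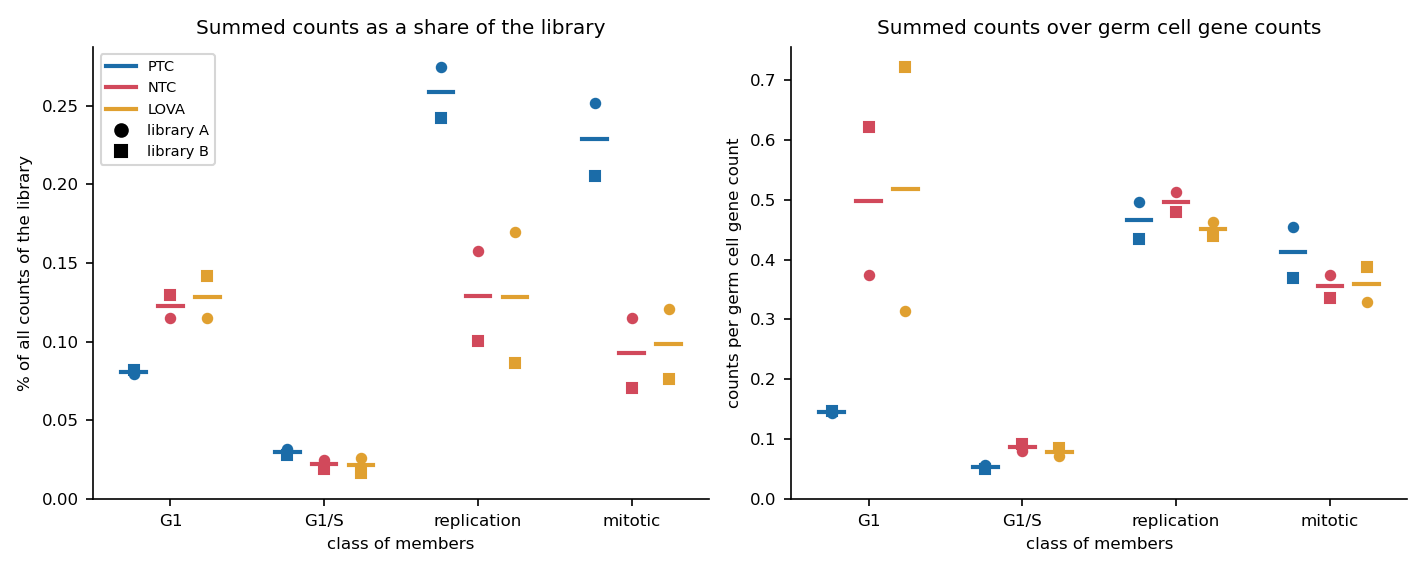
Summed counts of each class as a share of all counts of the library (left, %) and per count of the 19 germ cell markers (right), with 1 point per library and a bar at the mean of 2. Replication and mitotic sums of PTC stand above the other groups on the left and beside them on the right, while G1 sums of NTC and LOVA are above PTC in both.

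Replication and mitotic transcripts also varied together within groups. All 9 replication genes were higher in the A than in the B library of each group, as were all 12 mitotic genes in NTC and LOVA and 11 in PTC, with Cdc20 the exception. In G1 most genes were higher in B, as counted above. The B libraries had the lower germ cell share in NTC and LOVA and the higher fibroblast share in all groups. The class medians, taken as log2 CPM relative to each gene's mean, were 0.95 and 0.65 for mitotic and 0.68 and 0.54 for replication genes in PTC A and B. They were -0.05 and -0.76 for mitotic and 0.00 and -0.59 for replication genes in NTC. In LOVA they were -0.06 and -0.69, and 0.07 and -0.75. The mitotic median exceeded the replication median by 0.27 and 0.11 in PTC, by 0.06 in LOVA B, and lay below it in the remaining libraries, down to -0.17 in NTC B.

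The question of whether lovastatin moved these genes was asked by comparing LOVA with NTC, both without GDNF. None of the 36 genes was called (edgeR, 0 of 16121 genes called, 0%), and none had an unadjusted p under 0.05, against 561 of all tested genes. DESeq2 and limma-voom called none of the 36 either. Differences ran from -0.24 to 0.31 with a median of -0.01, and class medians were 0.11 for G1, -0.06 for G1/S, -0.04 for replication and -0.01 for mitotic genes. The intervals were wide enough to hold sizeable changes: for Cdc20 the difference was -0.0025 with a 95% interval from -0.80 to 0.79, for Mcm7 -0.04 (-0.80 to 0.71) and for Ccnd1 0.12 (-0.64 to 0.88). The narrowest interval near 0 was that of Cdk4 (-0.11, -0.45 to 0.24). A total of 4 genes did not overlap between LOVA and NTC, with Rb1 and Ccne1 higher and Cdk4 and Cdkn2a lower in LOVA, while 12.7% of all tested genes were higher and 13% lower in this way. Rb1 had the largest difference of the 36 (0.31, 95% interval -0.11 to 0.74, adjusted p = 1 in edgeR).

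LOVA against PTC, which replaced GDNF by lovastatin, gave values close to those of NTC against PTC; both comparisons share the PTC libraries. Of the 36 genes 4 were called higher (Ccnd1, Ccnd3, Cdk6 and Cdkn2b) and 9 lower (Mcm4, Mcm7, Ccna2, Ccnb1, Ccnb2, Aurka, Aurkb, Cdc20 and Top2a), where 19.8% of all tested genes were called higher, 10.8% lower and 30.6% in either direction. Both LOVA values lay above both PTC values in 8 genes and below them in 24, as they did in 38.4% and 37.9% of all tested genes. Scaled to the germ cell markers, 6 were called higher and 0 lower, where 29% and 0.211% of all tested genes were, so the higher share of the 36 again lay below the background. DESeq2 and limma-voom each called 15 of the 36 lower and 4 higher. Of all tested genes, DESeq2 called 15.2% lower and 22.8% higher, and limma-voom 13.6% lower and 19.8% higher. Cdkn2b was 4.05-fold higher (2.02, SE 0.28, adjusted p = 0.0167) and Cdk6 3.64-fold higher (1.87, SE 0.35, adjusted p = 0.0181) in LOVA than in PTC. Cdc20 was 2.90-fold lower (-1.53, SE 0.34, adjusted p = 0.0235), Mcm7 2.36-fold lower (-1.24, SE 0.32, adjusted p = 0.0316) and Top2a 2.16-fold lower (-1.11, SE 0.21, adjusted p = 0.0185). Rb1 (-0.36, adjusted p = 0.154), Cdkn2a (0.45, adjusted p = 0.0991), Mcm3 (-0.96, adjusted p = 0.0544), Plk1 (-1.06, adjusted p = 0.0529) and Bub1 (-0.76, adjusted p = 0.0846) were called in NTC against PTC but not here, and LOVA against NTC gave no call for any of them. Class medians were 0.74 for G1, -0.37 for G1/S, -0.89 for replication and -1.15 for mitotic genes, against 0.00 for all tested genes.

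Other genes of the same phases, 123 in all, also differed by phase. Of 49 further mitotic genes 32 were called lower and 0 higher in NTC than in PTC, with a median of -1.10, led by Incenp (-1.59) of the passenger complex, the kinesin Kif11 (-1.54), the phosphatase Cdc25c (-1.45) and anillin, Anln (-1.43). Of 50 further replication genes 16 were called lower and 0 higher, with a median of -0.78, led by the polymerase subunit genes Pold1 (-1.28) and Pole (-1.21), the chromatin assembly factor Chaf1b (-1.27) and the ligase Lig1 (-1.14). A positive value was seen in 1 of the 50, the origin recognition gene Orc4 (0.59, adjusted p = 0.0915). These were 65.3% and 32% of the lists, against 12.9% of all tested genes. Scaled to the germ cell markers, 0 mitotic and 0 replication genes were lower and 2 replication genes higher, with medians of -0.09 and 0.22. Of all tested genes, 0.248% were lower and 32.4% higher under that scaling, with a median of 1.01. On the TMM scale, 32 mitotic and 16 replication genes were called lower in LOVA against PTC. These were 65.3% and 32% of the lists, against 10.8% of all tested genes, and none was called between LOVA and NTC. E2F letters were present in 36.6% of 41 further replication genes with a window and CHR letters in 69.0% of 42 further mitotic genes.

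Further genes of the G1 and E2F pathway numbered 24, of which NTC had 4 called higher and 4 called lower against PTC, with a median of -0.23. Each count is 16.7% of the list, near the 21.5% higher and 12.9% lower of all tested genes. Cdkn1a, the CDK inhibitor p21, had 40.9 and 91.5 CPM in PTC, 402 and 472 CPM in NTC and 320 and 462 CPM in LOVA, and was called higher in NTC (2.72, SE 0.40, adjusted p = 0.00963). Rbl2, the pocket protein p130 (2.79), the cyclin G1 gene Ccng1 (2.16) and the CDK inhibitor Cdkn1c, p57 (1.07), were also called higher. Mycn (-1.37), the ubiquitin ligase subunit Skp2, which targets p27 (-1.28), the E2F partner Tfdp2 (-0.87) and the repressor E2f6 (-0.77) were called lower. Trp53 (0.14, adjusted p = 0.576) and Myc (1.45, SE 0.78, adjusted p = 0.185) were not called. Myc had 2.45 CPM in PTC A against 12.7 CPM in PTC B, a spread within PTC that is part of its wide error. In LOVA against PTC 5 were called higher (20.8% of the list), Mdm2 (0.64, adjusted p = 0.0440) being the added gene, and 4 lower (16.7%). Of all tested genes, 19.8% were called higher and 10.8% lower in that comparison. In LOVA against NTC none of the 24 was called. Scaled to the germ cell markers, 8 were called higher and 0 lower in NTC against PTC, against 32.4% of all tested genes called higher. Fibroblast marker shares moved with the higher genes here as with the G1 genes above, and their part was not tested.

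Single libraries decided many of these calls. Without NTC B no member was called in NTC against PTC, and without PTC A only Cdkn2b was. The loss ran over the whole table: without NTC B 1 of 16736 genes was called, and without PTC A 1210 were called higher and 201 lower, against 3472 and 2086 with all libraries. Cdkn2b kept its call in NTC against PTC without PTC B and without NTC A, as did Ccnd1 and Cdk6.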

How the data were processed

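Gene counts of 6 bulk RNA libraries (3 groups of 2) were used as the authors deposited them, as whole numbers per Ensembl gene with no normalization. Per the submitters' processing notes, Trimmomatic, Bowtie2, RSEM and DESeq2 were used on build mm10, with no roles or versions given. Counts from RSEM would be estimates, rounded by the authors; the table does not settle this. Per the labels' protocols, the library kit marks strand. The strand setting of counting is not given in the sources used here. Genes on the opposite strand also overlap exons of Ccnd3 (Bysl, 4208 counts against 17708) and Cdc20 (Elovl1, 3046 against 14746), among others. Symbols and exon lengths came from GENCODE M21 (31363 identifiers matched, 21 did not), and promoter windows from RefSeq on GRCm38.p6, the same build as mm10.

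Genes were kept with filterByExpr, scaled by TMM and fitted in edgeR 4.0.16 (robust quasi-likelihood F test, legacy form, R 4.3.3) over all 6 libraries with 1 coefficient per group. P-values were Benjamini-Hochberg adjusted over 16121 genes, and a gene was called at an adjusted p under 0.05. The common biological coefficient of variation was 0.260, and a count of 3 equalled 0.128 to 0.258 CPM, which covers counting error only. RPKM used the union of exons. DESeq2 1.42.0 and limma 3.58.1 (voom) were alternatives, beside other scalings, filters, a block by column letter and leaving out each library. The edgeR fit was also run on counts simulated from its own model, with independent libraries and few changed genes. That run could not test differences shared by same-letter libraries or changes over much of the table.

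The genes, their classes and all lists were chosen with earlier results of these data known. Named were all 36 genes, and Cdkn1a, Trp53 and Myc. From each further list, at most 4 genes called in each direction in NTC against PTC were named. They had the largest changes at a mean CPM of at least 5. Orc4 and Mdm2 were named after their values were seen. Outside this rule, Cenpf, Cenpe, Espl1, Mad2l1 and Racgap1 were named for their exon length and value.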

Additional observations from a re-analysis of the deposited data

How the results depend on the processing

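Between NTC and PTC, the count of genes called lower (13) and higher (5) stayed within 1.5 times under RLE scaling, total counts, either filter, DESeq2, limma-voom, the block by letter and a fit of the compared groups alone. Scaling to germ cell markers left 0 lower. Leaving out each library in turn gave 0 to 18 lower and 0 to 6 higher: 0 and 1 when PTC A was dropped, 4 and 4 for PTC B, 0 and 0 for NTC B, 9 and 3 for NTC A, and 18 and 6 for either LOVA library; a lone library left in a group was assumed to vary like the others. In LOVA against PTC, 9 were called lower, against 0 under the germ cell scaling, 18 without a count filter, 15 with DESeq2, 15 with limma-voom and 0 to 20 with a library left out (0 without PTC A, 3 without PTC B, 0 without LOVA B, 20 without LOVA A); the higher calls (4) ranged from 1 to 5 with a library left out, at 1 without PTC A and without LOVA B, and were 6 under the germ cell scaling and 4 or 5 under the other scalings, filters and tools. Shares of all tested genes called lower in LOVA against PTC were 10.8% in the main fit, 11.3% without a count filter, 15.2% with DESeq2 and 13.6% with limma-voom. The replicate block by column letter gave 21 lower and 6 higher in LOVA against PTC, where 21.5% and 26.5% of all tested genes were called. In NTC against PTC the block gave 19 lower and 6 higher, where 22.5% and 27.4% of all tested genes were. The letters are not tied to the labels' replicate numbers, and deviations of same-letter libraries correlated at 0.31 to 0.48. The block called none of the 36 in LOVA against NTC. Under the germ cell scaling the medians in NTC against PTC were 1.65 (G1), 0.80 (G1/S), 0.10 (replication) and -0.28 (mitotic), and in LOVA against PTC 1.77, 0.60, -0.009 and -0.23; the signs of Rb1 (0.35, adjusted p = 0.477), Mcm4 (0.10, adjusted p = 0.790) and Bub1 (0.017, adjusted p = 0.970) in NTC against PTC and of Mcm4 (0.15, adjusted p = 0.694) in LOVA against PTC reversed. Counting genes not called as well, all 5 G1/S genes, 6 of 9 replication genes and 4 of 12 mitotic genes turned from negative to positive in NTC against PTC. The median of all tested genes in NTC against PTC was 1.01 under that scaling. With a library left out, the G1 median in NTC against PTC ranged from 0.54 to 0.93 (0.93 without PTC B) and the G1/S median from -0.44 to -0.12 (-0.44 without NTC A). The causes of these changes were not tested. No gene of the 36 was called in LOVA against NTC under any alternative run. All members but Cdkn2c, which had 21 to 60, had at least 99 counts in every library.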

Other observations

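Mitotic genes were also set against their exon length, the union of all annotated exons, which can exceed the length of a single transcript. Over the 12 mitotic genes and 49 further mitotic genes, Spearman's rho of the log2 fold change with exon length was 0.477 in LOVA against NTC, 0.325 in LOVA against PTC and 0.104 in NTC against PTC (61 genes that share their libraries; a description with no test). Over all 16118 tested genes with a length it was 0.268, 0.069 and -0.006. Cenpf, a kinetochore protein with 15433 bases of exons, had a log2 fold change of 0.61 in LOVA against NTC, and Cenpe, a kinetochore motor with 8620 bases, 0.58. Mki67, with 10061 bases, had 0.26. Genes with a long exon union and a negative value included Espl1 (8749 bases, -0.11), Mad2l1 (8390 bases, -0.04) and Racgap1 (7079 bases, -0.16). None of these was called, all at an adjusted p of 1 in edgeR. The measure over the 61 genes was also away from 0 between libraries of a group, with rho of 0.296 for A over B in PTC, -0.215 in NTC and -0.413 in LOVA. Over all tested genes with a length it was 0.037 in PTC, -0.15 in NTC and -0.176 in LOVA. Differences by exon length were thus also seen within groups, though in PTC hardly over all tested genes.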
